A study of Ascaris suum with 12 samples.

Results

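Scaffold AgE51 of the Ascaris suum germline genome assembly carries 5 gene models, AgE51_g003 to AgE51_g007, that the deposited annotation largely names for proteins encoded by the mitochondrial genome. The 5 genes were taken by their identifiers together with all of their transcripts, which gave 8 of the 61820 transcripts in the expression table and 5 of its 18025 genes. Ascaris suum is a large roundworm of the pig intestine whose early embryos discard part of the germline genome from cells that will form the body (programmed DNA elimination). Adult worms of a North American wildtype strain were collected from freshly isolated pig intestines, and their germlines were dissected into regions. RNA from each region was depleted of ribosomal RNA with a kit made for human, mouse and rat RNA, and sequenced as 1 library. No treatment was given, and the labels do not say how many worms a region came from.

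The 5 male regions were, in the order of the deposited columns, the mitotic region, the region of spermatogenesis, the post-meiotic region, the seminal vesicle and the spermatids. The 5 female regions were the mitotic region, where germ cells still divide, then early pachytene, late pachytene and diplotene, which are steps of meiotic prophase, and the oocyte. Values below are given in these 2 orders. With 1 library for each region, differences between regions have no replicate check, and no p-value is given. The 2 libraries of a mixed sample, made from RNA 5′ ends, are not analysed here. The series title places the study in the comparison of genomes that undergo DNA elimination. The expression table serves the question of where in the germline each gene is expressed.

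Mitochondria keep a small circular genome of their own, which is inherited through the egg and is copied and read apart from the chromosomes of the nucleus. In nematodes it encodes a few core subunits of the respiratory chain and of ATP synthase, together with the ribosomal and transfer RNAs needed to translate them. All other subunits of those complexes are nuclear genes whose products are imported, so a working complex I, III, IV or V draws on both genomes. Egg cells of animals are rich in mitochondria, and the sperm of Ascaris also carries them.

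The members have 4 named roles beside 1 hypothetical protein. AgE51_g003 has 1 transcript, annotated as cytochrome b, the subunit of complex III that holds its quinone-binding sites. AgE51_g007 has 1 transcript, annotated as chain 1 of NADH-ubiquinone oxidoreductase, a membrane subunit of complex I. AgE51_g004 has 4 transcripts. Its transcript g004_t01 is named for subunit a of ATP synthase, the membrane subunit of complex V that forms its proton path. Its transcripts g004_t02, g004_t03 and g004_t04 are named for subunit 1 of cytochrome c oxidase (COX1), the catalytic core of complex IV. The transcript of AgE51_g006 is also named for COX1. The transcript of AgE51_g005 is annotated only as a hypothetical protein, so nothing in the table names it as mitochondrial.

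The models overlap heavily on the scaffold, and coordinates are as deposited. The build behind them is not named in the labels, the notes or the table. AgE51_g003 lies on the plus strand at AgE51:31566-33424 with 2 exons. AgE51_g004 also lies on the plus strand, and its 4 transcripts lie within AgE51:33650-53974. Transcript g004_t02 is a single exon of 15454 nt at AgE51:36774-52227. Transcript g004_t03 has 2 exons and 13930 nt at AgE51:36870-53974, and g004_t04 has 2 exons and 11705 nt at AgE51:38211-53184. The ATP synthase transcript g004_t01 has 3 exons that make only 2361 nt of the whole interval AgE51:33650-53974. The other 3 genes are on the minus strand. AgE51_g006 lies at AgE51:39135-44512 with 4849 nt, inside the span of g004_t04. AgE51_g005 lies at AgE51:37087-52582, where its 2 exons make 2023 nt. AgE51_g007 lies at AgE51:49185-54362, where its 2 exons make 1708 nt, and its span overlaps the end of AgE51_g004.

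Reads from overlapping or antisense models cannot be told apart here, because the sources do not say whether strand was used or how reads were divided. The values of these models are therefore not independent of each other. The length of g004_t02, g004_t03 and g004_t04 goes far beyond a single coding region, so their COX1 name covers part of the model only.

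All 8 transcripts carried the table's mark of a capped 5′ end that is not trans-spliced, and none carried the mark of a spliced leader, the short RNA joined to the start of many nematode messages. Over all 61820 transcripts, 15.15% carried the capped mark and 46.44% the spliced leader mark. All 8 are also marked as eliminated, as are 6.1% of all transcripts. Whether AgE51 holds a nuclear copy of the mitochondrial genome, or mitochondrial sequence assembled into a scaffold, was not tested. Nor was it tested whether the reads counted on these models came from mitochondrial RNA. The scaffold's other 2 genes, AgE51_g001 and AgE51_g002, carry the same elimination mark. They have 8 transcripts, 7 of them named for Kelch-like protein 10, and their levels were far lower. RPKM, the unit of all levels here, scales the reads of a transcript by its length and by the reads of the library. The highest of the 8 transcripts of AgE51_g001 and AgE51_g002, AgE51_g001_t01, reached 21.9 RPKM in spermatogenesis. In the seminal vesicle all 8 of these were at 0.0 RPKM, while the 8 transcripts of the members stood at 28.3 to 1636.1 RPKM.

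The libraries held about 9000000 reads (diplotene) to 35400000 reads (seminal vesicle), a depth recovered from the steps between values of short transcripts. At that depth the fewest reads behind any value of the 8 transcripts was 151, and exact 95% Poisson intervals were at most 16.3% wide on either side. These intervals cover counting error only. Summed levels of marker genes set the male and the female libraries apart. The summed level of 69 transcripts of sperm markers (major sperm protein and MFP) was 32584.4, 84273.6, 50301.9, 737.0 and 5869.3 RPKM in the 5 male regions and 142.9 to 297.5 RPKM in the female ones. By the median of these transcripts the seminal vesicle, at 0.7 RPKM, was not set apart from the female regions, at 0.3 to 1.2 RPKM. The summed level of 97 transcripts of oocyte and eggshell markers was 263.9 to 2137.4 RPKM in male and 34355.9 to 85582.9 RPKM in female regions. Transcripts named for cuticle collagens and cuticlins summed to 55112.7 RPKM in the seminal vesicle and 46834.7 RPKM in spermatids, against at most 5202.0 RPKM in the other 8 regions. Which cells this RNA came from was not tested. Muscle markers summed to 285.0 to 6466.0 RPKM and intestine and yolk markers to 113.6 to 1998.1 RPKM over the 10 regions. In bulk tissue, fewer cells of a type and less RNA per cell cannot be told apart.

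The 8 transcripts formed 2 levels. The 3 COX1 transcripts of AgE51_g004, the transcript of AgE51_g006 and that of AgE51_g005 were among the most abundant RNAs of nearly every region, with 465.0 RPKM or more in every region, apart from AgE51_g005 in the oocyte. The cytochrome b, ATP synthase subunit a and NADH dehydrogenase chain 1 transcripts were lower, and passed 117.2 RPKM only in male mitotic tissue and the oocyte. These are levels of whole models under their annotated names. How many reads of the models named for COX1 came from COX1 itself was not tested, so the 2 levels do not compare single subunits.

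The most abundant was the COX1 transcript g004_t03. It stood at 7018.3, 1735.8, 3716.3, 1576.0 and 1828.4 RPKM in the 5 male regions and at 2178.4, 2212.1, 2418.0, 3109.4 and 1145.1 RPKM in the 5 female regions. In the male mitotic region it was the transcript of rank 3 among all 61820, and its lowest rank in any region was 127, in the oocyte. By RPKM times length it took 9.7765% of the reads of the male mitotic library and 1.5951% of those of the oocyte library. Summed over all transcripts, reads were counted 3.08 to 4.46 times per library, so such shares of overlapping models cannot be added.

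The other COX1 models tracked it in most regions. Transcript g004_t04 stood at 5493.5, 1183.1, 2580.1, 1058.3 and 465.0 RPKM in male and at 1656.1, 1660.0, 1824.8, 1589.5 and 1333.7 RPKM in female regions. Transcript g004_t02 stood at 2849.4, 677.6, 1490.6, 633.6 and 599.9 RPKM in male and at 887.9, 894.1, 977.0, 1183.7 and 750.0 RPKM in female regions. The antisense model AgE51_g006 stood at 6168.9, 1338.9, 2943.1, 1180.8 and 534.1 RPKM in male and at 1899.1, 1924.8, 2124.1, 1811.8 and 524.7 RPKM in female regions. In the values as deposited, all 4 COX1 models were highest in the male mitotic region and second highest in the post-meiotic region, and lowest either in spermatids or in the oocyte. This order turned with the scaling for 2 of them. After rescaling by median ratios, g004_t03 had 4237.6 in the post-meiotic and 4106.5 in the male mitotic region, g004_t02 had 1699.7 and 1667.2 in the same 2 regions, and both were lowest in the female mitotic region.

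The hypothetical transcript AgE51_g005 had a profile of its own in spermatids and the oocyte. It stood at 5229.9, 1643.8, 3706.7, 1636.1 and 3201.8 RPKM in male and at 1849.2, 1913.4, 2092.6, 4254.6 and 64.8 RPKM in female regions. In spermatids it ranked 56 among all transcripts and was the highest of the 8. In the oocyte it ranked 1533 and was the lowest of the 8.

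The other 3 transcripts had the reverse pattern in spermatids and the oocyte. Cytochrome b (AgE51_g003) stood at 268.2, 32.9, 44.7, 28.3 and 7.5 RPKM in male and at 41.5, 43.4, 44.6, 15.4 and 378.7 RPKM in female regions. ATP synthase subunit a (g004_t01) stood at 292.4, 52.3, 117.2, 52.5 and 17.3 RPKM in male and at 47.8, 35.5, 35.1, 58.7 and 928.5 RPKM in female regions. NADH dehydrogenase chain 1 (AgE51_g007) stood at 332.4, 43.7, 81.3, 47.2 and 11.4 RPKM in male and at 45.5, 37.2, 36.9, 46.1 and 275.4 RPKM in female regions. As deposited, all 3 were lowest in spermatids. Cytochrome b and ATP synthase subunit a were highest in the oocyte, and NADH dehydrogenase chain 1 was highest in the male mitotic region and next highest in the oocyte. After rescaling by median ratios the oocyte held its highest value, 371.2, against 194.5 in the male mitotic region, and the oocyte also led, by a ratio of 1.05, when the 100 highest transcripts were left out of the totals. Under median ratios the lowest value of ATP synthase subunit a lay in the female mitotic region, at 23.3, with 24.0 in spermatids. Their ranks ran over a wide span, for cytochrome b between 307 in the oocyte and 9632 in spermatids. The value of 7.5 RPKM in spermatids rested on about 230 reads, with an interval of 6.58 to 8.55 RPKM.

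**Figure D1:**
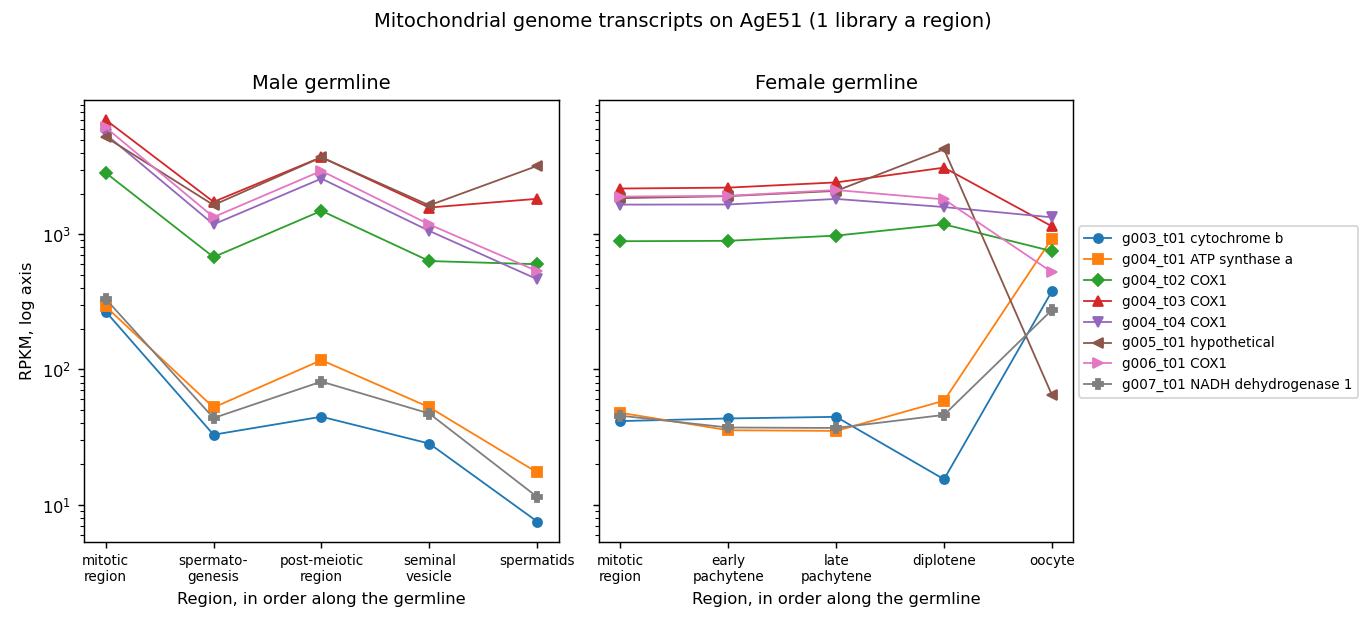
Level of each of the 8 transcripts in RPKM (log axis) in the 5 male regions (left) and the 5 female regions (right), with 1 library per point and lines joining neighbouring regions. The COX1 models and AgE51_g005 lie above the other 3 transcripts in every region except the oocyte, where AgE51_g005 drops to 64.8 RPKM and ATP synthase subunit a reaches 928.5 RPKM.

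A difference between 2 regions was called when RPKM + 1 differed at least 4-fold and the higher value was 10 RPKM or more. The differences below are on the log2(RPKM + 1) scale. All 8 transcripts reached 10 RPKM in at least 1 region, as did 32863 of all 61820 transcripts. In each comparison, the share of all 61820 transcripts called in the same direction stands beside the members' count.

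In the order of the male regions the only called step was the first. Spermatogenesis was lower than the male mitotic region for 7 of the 8 transcripts and 4 of the 5 genes, beside 10.3% of all transcripts. None of the 8 was higher, beside 2.34% of all. The difference was -2.99 for cytochrome b, -2.90 for NADH dehydrogenase chain 1, -2.46 for ATP synthase subunit a, and -2.01 to -2.21 for the 4 COX1 models. The call of g004_t03 was a narrow one, since 1735.8 RPKM in spermatogenesis against 7018.3 RPKM in the mitotic region is a ratio of 4.043. The transcript without a call was AgE51_g005, at -1.67. The median difference was -2.20 over the 8 transcripts and -0.80 over all transcripts that reached 10 RPKM in either region.

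The size of this step depended on how the libraries were scaled. When they were rescaled by median ratios, the library of spermatogenesis was divided by a log2 factor of -1.20 and that of the male mitotic region by one of 0.77. None of the 8 then passed the 4-fold rule, and the differences were -1.05 for cytochrome b, -0.95 for NADH dehydrogenase chain 1, -0.51 for ATP synthase subunit a, -0.04 to -0.24 for the COX1 models and 0.30 for AgE51_g005. Relative to the bulk of transcripts, the step was thus small for the COX1 models, and AgE51_g005 turned to the other sign.

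The next steps moved less than 4-fold for every member. The post-meiotic region was above spermatogenesis by 0.43 for cytochrome b and by 0.88 to 1.17 for the other 7 transcripts, with none called, beside 5.86% of all transcripts called higher and 10.3% lower. Under rescaling by median ratios those 8 differences were -0.56 to 0.16. The seminal vesicle was below the post-meiotic region by differences of -0.64 to -1.32, with none called, beside 1.59% higher and 6.57% lower among all transcripts.

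Between the seminal vesicle and the spermatids the 8 transcripts parted. Spermatids had 3201.8 RPKM of AgE51_g005, against 1636.1 RPKM in the seminal vesicle, a difference of 0.97. The COX1 transcript g004_t03 differed by 0.21 and g004_t02 by -0.08, while g004_t04 differed by -1.18 and AgE51_g006 by -1.14. Cytochrome b, ATP synthase subunit a and NADH dehydrogenase chain 1 differed by -1.79, -1.55 and -1.96. None passed 4-fold, beside 2.74% of all transcripts higher and 0.354% lower. The values of the last 3 transcripts were near the threshold, and cytochrome b (-2.07) and NADH dehydrogenase chain 1 (-2.23) passed it after rescaling by median ratios. The sum of cuticle markers was high in both of these libraries, and its part in these values was not tested.

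Taken from the first to the last male region, spermatids were lower than the male mitotic region for 6 of 8 transcripts and 3 of 5 genes. This stands beside 14.4% of all transcripts, and none was higher, beside 2.30%. Cytochrome b had 7.5 RPKM in spermatids, against 268.2 RPKM in the mitotic region, a difference of -4.99. NADH dehydrogenase chain 1 differed by -4.75 and ATP synthase subunit a by -4.00. The COX1 models g004_t04 and AgE51_g006 differed by -3.56 and -3.53. The long COX1 models differed least among the COX1 names, with -2.25 for g004_t02 and -1.94 for g004_t03, which missed the threshold. AgE51_g005 differed by -0.71, with 3201.8 RPKM in spermatids and 5229.9 RPKM in the mitotic region, and its sign turned to 0.53 under rescaling by median ratios. The median over all transcripts reaching 10 RPKM was -1.77. Rescaling left 5 of the 8 transcripts lower, with g004_t02 at -1.0.

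In the female germline the deposited values of the first 3 regions were nearly flat for these genes. Early pachytene differed from the female mitotic region by -0.42 to 0.06, with no member called, beside 0.238% of all transcripts higher and 0.105% lower. Late pachytene differed from early pachytene by -0.02 to 0.14, with no member called, beside 0.0% higher and 0.0631% lower. The COX1 transcript g004_t03 thus stood at 2178.4, 2212.1 and 2418.0 RPKM in these 3 libraries.

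At diplotene some members began to part, though none passed 4-fold, beside 2.19% of all transcripts higher and 6.12% lower. AgE51_g005 had 4254.6 RPKM at diplotene, against 2092.6 RPKM in late pachytene, a difference of 1.02. ATP synthase subunit a differed by 0.73 and cytochrome b by -1.48, and the other 5 transcripts by -0.23 to 0.36. The cytochrome b value at diplotene, 15.4 RPKM, rested on about 151 reads and had an interval of 13.0 to 18.0 RPKM. The diplotene library was the shallowest of the 10. The median over all transcripts reaching 10 RPKM fell by 1.17 at this step, and all of the 8 except cytochrome b lay above that median.

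Between diplotene and the oocyte the 8 transcripts moved apart, in both directions. Oocytes had higher levels of 3 transcripts of 3 genes, beside 0.924% of all transcripts, and a lower level of 1, beside 0.822%. Counted with 1 transcript per gene, the highest, these were 2 genes higher and 1 lower, since AgE51_g004 is then represented by g004_t03.

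Cytochrome b had 378.7 RPKM in the oocyte (interval 371.17 to 386.35), against 15.4 RPKM at diplotene, a difference of 4.53. ATP synthase subunit a had 928.5 RPKM in the oocyte, against 58.7 RPKM at diplotene, a difference of 3.96. NADH dehydrogenase chain 1 had 275.4 RPKM in the oocyte, against 46.1 RPKM at diplotene, a difference of 2.55. These 3 transcripts name subunits of complexes III, V and I.

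AgE51_g005 went the other way. It had 64.8 RPKM in the oocyte (interval 62.51 to 67.14), against 4254.6 RPKM at diplotene (interval 4224.72 to 4284.70), a difference of -6.02. The COX1 models lay between, with -1.79 for AgE51_g006, -1.44 for g004_t03, -0.66 for g004_t02 and -0.25 for g004_t04. Rescaling by median ratios left all 4 calls of this step in place, with 4.78 for cytochrome b and -5.79 for AgE51_g005.

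The oocyte against the female mitotic region gave the same calls of 3 transcripts higher, beside 2.65% of all transcripts, and 1 lower, beside 14.3%. ATP synthase subunit a differed by 4.25, cytochrome b by 3.16 and NADH dehydrogenase chain 1 by 2.57, while AgE51_g005 differed by -4.81. The COX1 models differed by -0.24 to -1.85 and were not called. The median over all transcripts reaching 10 RPKM was -1.64. Under rescaling, the 3 COX1 transcripts of AgE51_g004 had differences of 0.54 to 1.22 and AgE51_g006 one of -0.39, so the direction of the first 3 turned with the scaling. This comparison and the one with diplotene share the oocyte library.

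**Figure D2:**
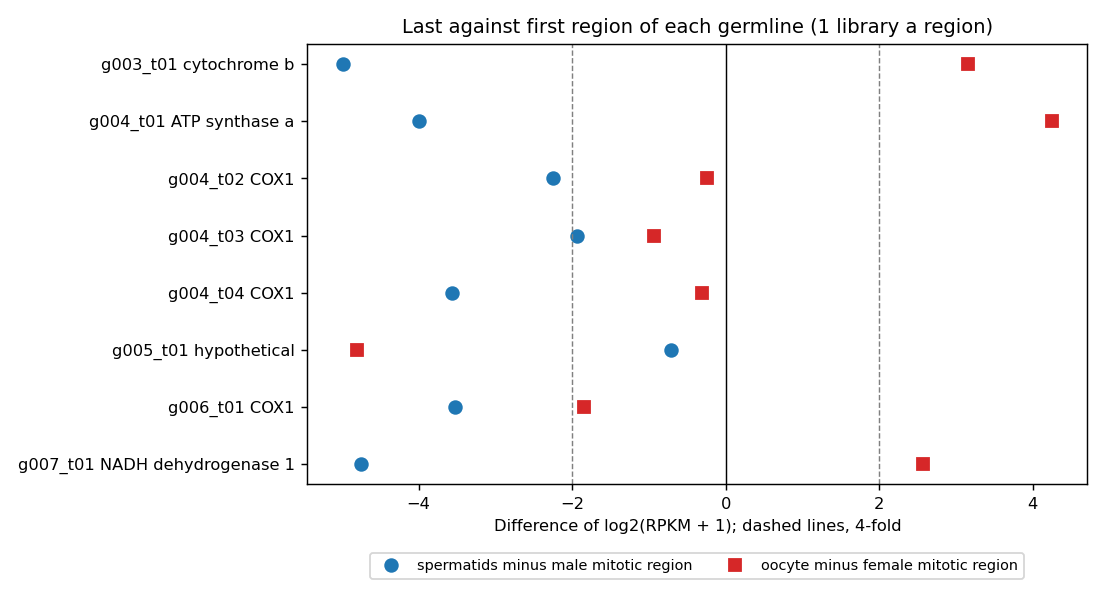
Difference of log2(RPKM + 1) between the last and the first region of each germline for the 8 transcripts, with circles for spermatids minus male mitotic region and squares for oocyte minus female mitotic region. Dashed lines mark 4-fold. Cytochrome b, ATP synthase subunit a and NADH dehydrogenase chain 1 lie at -4.99, -4.00 and -4.75 in the male and at 3.16, 4.25 and 2.57 in the female germline, and AgE51_g005 lies lowest in the female.

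The 2 mitotic regions differed for the same 3 names. The male mitotic region was higher than the female one for 3 of 8 transcripts and 2 of 5 genes, beside 7.62% of all transcripts, and none was lower, beside 4.85%. NADH dehydrogenase chain 1 had 332.4 RPKM in the male, against 45.5 RPKM in the female mitotic region, a difference of 2.84. Cytochrome b differed by 2.66 and ATP synthase subunit a by 2.59. The COX1 models and AgE51_g005 were also higher in the male, by 1.5 to 1.73, which is under 4-fold. The median over all transcripts reaching 10 RPKM was -0.26.

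Across all regions the sexes overlapped. No member had all of its 5 male values above or below all of its 5 female values, beside 5.68% of transcripts with every male value higher and 9.45% with every male value lower among those reaching 10 RPKM. The male medians of g004_t03 and AgE51_g007 were 1828.4 and 47.2 RPKM, and the female medians were 2212.1 and 45.5 RPKM.

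Ratios between members within a library do not depend on how libraries are scaled. Each of those given below had the oocyte at an end of its range, except AgE51_g006 over g004_t03. That ratio ran from 0.292 in spermatids to 0.879 in the male mitotic region, with 0.458 in the oocyte. In most of the others spermatids lay at the end opposite the oocyte, but not for AgE51_g006 over g004_t04. The ratio of AgE51_g006 to the overlapping sense transcript g004_t04 was 1.12 to 1.16 in 9 regions and 0.393 in the oocyte. The ratio of g004_t02 to g004_t03 was 0.381 to 0.408 in 8 regions, 0.328 in spermatids and 0.655 in the oocyte. These models overlap, and how many of their reads are common to them was not tested.

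The ratio of AgE51_g005 to AgE51_g006 was 0.848 to 2.35 in 8 regions, 5.99 in spermatids and 0.123 in the oocyte. Spermatids and the oocyte were thus at opposite ends of this ratio, which ran over a 48.5-fold range. The ratio of ATP synthase subunit a to g004_t03 was 0.0145 to 0.0417 in 8 regions, 0.00946 in spermatids and 0.811 in the oocyte. For cytochrome b it was 0.0041 in spermatids, 0.00495 at diplotene and 0.331 in the oocyte, and for NADH dehydrogenase chain 1 it was 0.00623 in spermatids and 0.241 in the oocyte. In the oocyte these 3 transcripts were thus at 0.241 to 0.811 of the level per length of g004_t03, while in the other 9 regions they were at most 0.0474 of g004_t03.

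**Figure D3:**
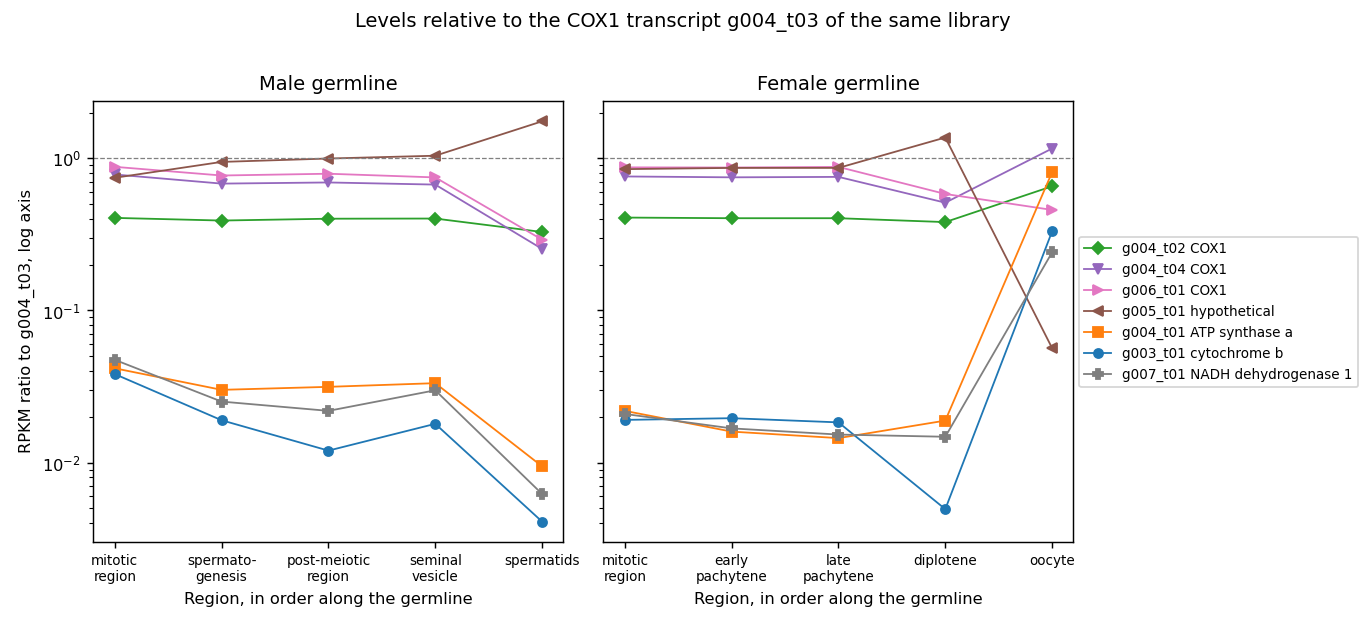
Ratio of the RPKM of 7 transcripts to that of the COX1 transcript g004_t03 of the same library (log axis), in the 5 male regions (left) and the 5 female regions (right). The dashed line marks a ratio of 1. Over the first 3 male regions the ratio of cytochrome b is 0.0382, 0.019 and 0.012, and in the oocyte ATP synthase subunit a reaches 0.811 while AgE51_g005 falls to 0.0566.

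Among themselves the members differed in how alike their profiles over the 10 regions were. On the log2(RPKM + 1) scale, Pearson's r was 0.947 between ATP synthase subunit a and NADH dehydrogenase chain 1, 0.936 between cytochrome b and NADH dehydrogenase chain 1, and 0.899 between cytochrome b and ATP synthase subunit a. It was -0.599 between AgE51_g005 and ATP synthase subunit a and -0.542 between AgE51_g005 and cytochrome b. The COX1 models lay between and leaned to different sides. Transcript g004_t04 had r of 0.729 with NADH dehydrogenase chain 1, 0.640 with cytochrome b and 0.233 with AgE51_g005. In the same order r was 0.617, 0.468 and 0.433 for g004_t02. It was 0.365, 0.252 and 0.626 for AgE51_g006 and 0.328, 0.158 and 0.714 for g004_t03. Without the oocyte every pair of the 8 had a positive r, from 0.227 to 1.0, so the negative signs rested on that library. The pairs of AgE51_g005 with ATP synthase subunit a and with cytochrome b then had 0.550 and 0.227. Between g004_t04 and AgE51_g006 r was 0.891, and 1.0 without the oocyte. These are descriptions over 10 libraries whose depth and scaling all the members share.

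The 10 transcripts of other scaffolds whose profiles were most like the mean profile of the 5 genes had r of 0.842 to 0.901 among 26331 candidates. The first 3 were AgR012_g250_t01 (eukaryotic translation initiation factor 1A, which helps load the first tRNA on the ribosome), AgB03_g157_t01 (RAD23 A, which takes part in DNA repair and protein turnover) and AgR002_g405_t06 (multidrug resistance-associated protein 4, a membrane pump). The 4th, AgR003_g331_t02, was named a 28s ribosomal protein, and the 5th, AgR033_g010_t01, para-hydroxybenzoate polyprenyltransferase, an enzyme of ubiquinone synthesis. The other 5 were AgR004_g387_t02 (ugt-58), AgR011_g086_t03 (FAM98A), AgR061_g023_t04 (ABH4), AgR004_g133_t03 (a tri-snRNP-associated protein) and AgR008_g259_t01 (YIF1A). They shared the peak in the male mitotic region at far lower levels, for example 14.2 RPKM there and 1.5 to 5.8 RPKM elsewhere for AgR012_g250_t01. This list was not stable, since only 1 of the 10 genes was found again without the male mitotic library, 1 without spermatogenesis and 3 after rescaling by median ratios. The mean profile joins members that part in spermatids and the oocyte, and it had r of 0.902 with AgE51_g006 but 0.368 with AgE51_g005.

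Other scaffolds of the table also carry transcripts with names of mitochondrial genome proteins. There were 18, of 17 genes on 9 scaffolds, and 9 of them reached 10 RPKM in some region. This list was written after the annotations were seen. Of the 18, 10 (55.6%) peaked in the oocyte, beside 8.4% of all transcripts, but 9 of the 18 stayed under 10 RPKM everywhere. Oocytes were higher than diplotene for 8 of the 18, beside 0.924% of all transcripts, and lower for 1, beside 0.822%.

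The transcript lower in the oocyte was AgB02_g498_t01, named for chain 6 of NADH-ubiquinone oxidoreductase, at AgB02:8434309-8435712. It stood at 3792.3, 1178.0, 2381.8, 1065.6 and 2148.9 RPKM in male and at 1247.2, 1291.3, 1392.8, 2543.7 and 183.2 RPKM in female regions. Its profile was close to that of AgE51_g005, with a ratio to it of 0.598 to 0.725 in 9 regions and 2.83 in the oocyte.

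The transcripts higher in the oocyte differed in their other regions. AgR009X_g329_t01, named for cytochrome oxidase subunit 1, had 765.7 RPKM in the oocyte and 0.6 to 16.3 RPKM elsewhere. AgR023_g128_t01, named for cytochrome c oxidase subunit 3, had 156.8 RPKM in the oocyte and 7.2 RPKM at diplotene, and its neighbour AgR023_g127_t01, named for cytochrome b, had 106.9 RPKM in the oocyte and 7.6 RPKM at diplotene. AgB12_g063_t01, also named for cytochrome b, had 254.0 RPKM in the oocyte, 45.9 RPKM at diplotene and 10.1 RPKM in spermatids. AgR022_g083_t01, named for cytochrome c oxidase subunit 1, had 766.2 RPKM in the male mitotic region, 636.6 RPKM in the oocyte and 29.8 RPKM in spermatids. Whether reads of 1 source were divided among such models and those of AgE51 was not tested.

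**Figure D4:**
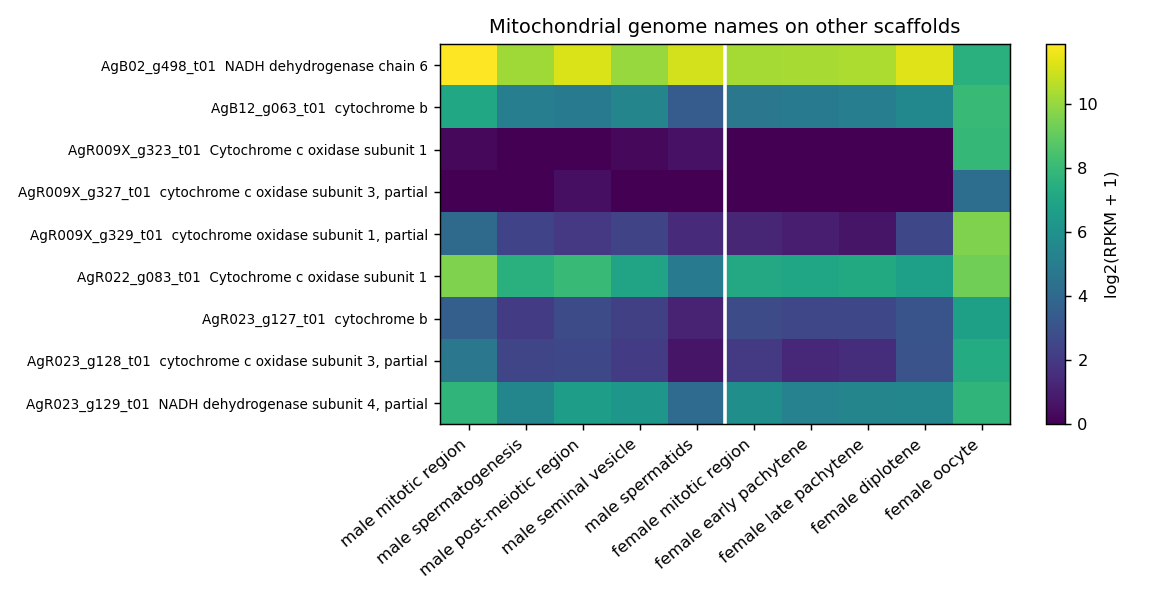
Level, as log2(RPKM + 1), of the 9 transcripts on other scaffolds that are named for mitochondrial genome proteins and reach 10 RPKM, by region, with the 5 male regions left of the white line and the 5 female regions right of it. AgR009X_g329_t01 has 765.7 RPKM in the oocyte, while AgB02_g498_t01 has its lowest value there, 183.2 RPKM. AgR009X_g323_t01 and AgR009X_g327_t01 reach 10 RPKM only in the oocyte.

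The imported partners of the proteins that the members are named for come from nuclear genes of the same complexes. Lists made from annotation words held 185 transcripts of 64 such genes, with complex II included. For complexes I to V, 73 of 77, 27 of 27, 14 of 17, 18 of 18 and 35 of 46 reached 10 RPKM in some region. Over all 61820 transcripts 32863 did so, and the shares over all transcripts below thus include more that could not be called. Their median was 41.0, 9.9, 13.1, 16.4 and 15.8 RPKM in the 5 male regions and 33.5, 31.4, 30.1, 22.8 and 21.7 RPKM in the 5 female regions. Over all 61820 transcripts the medians were 4.4, 1.4, 2.0, 0.4 and 1.5 RPKM in male and 3.5, 3.0, 3.0, 2.1 and 1.9 RPKM in female regions.

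At the step into spermatogenesis 111 of the 185 (60.0%) were lower, beside 10.3% of all transcripts, and none was higher, beside 2.34%, with a median difference of -2.37 against -0.44 over all 61820 transcripts. By complex, 47 of 77 were lower for complex I, 14 of 27 for complex II, 12 of 17 for complex III, 13 of 18 for complex IV and 25 of 46 for complex V. The members' share of 7 of 8 stands beside these, though it counts overlapping models whose values are not independent. The limit of the scaling is the same, since after rescaling by median ratios none of the 185 was lower and 8 were higher. Complex I's iron-sulfur protein 8 (AgR005_g309_t04), which passes electrons inside the complex, had 48.2 RPKM in spermatogenesis, against 490.7 RPKM in the male mitotic region. Subunit 6B of cytochrome c oxidase (AgR005_g160_t01) had 25.9 RPKM in spermatogenesis, against 149.8 RPKM in the mitotic region.

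Between diplotene and the oocyte, 2 of the 185 nuclear transcripts (1.08%) were higher, beside 0.924% of all transcripts, and none was lower, beside 0.822%, so the list was near the background. In the oocyte against the female mitotic region 8 of the 185 (4.32%) were higher, beside 2.65% of all transcripts, and 38 (20.54%) lower, beside 14.3%. More of the list than of all transcripts could be called, so these shares are not read as an excess. After rescaling by median ratios 22 of the 185 were higher and 1 was lower in this comparison. The main direction of its calls thus turned with the scaling. The levels that follow are as deposited. Cytochrome b-c1 complex subunit 2 (AgR027X_g016_t04), a core protein of complex III, had 13.8 RPKM in the oocyte, against 133.3 RPKM in the female mitotic region. The alpha subunit of ATP synthase (AgB27X_g015_t01), part of its catalytic head, had 160.3 RPKM in the oocyte, against 715.6 RPKM in the female mitotic region. Of the 185, 22 (11.9%) peaked in the oocyte, beside 8.4% of all transcripts.

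In spermatids against the male mitotic region 24 of the 185 (12.97%) were lower, beside 14.4% of all transcripts, and none was higher, beside 2.30%. Complex IV held 12 of them, out of its 18 transcripts (66.67%), and complex II 9 of its 27 (33.33%). Complex I held 2 of its 77, complex III 1 of its 17 and complex V 0 of its 46. After rescaling by median ratios 7 of the 185 were lower. Cytochrome c oxidase subunit 5A (AgR041_g075_t01) had 6.6 RPKM in spermatids, against 60.8 RPKM in the mitotic region. In the male against the female mitotic region, 16 of the 185 (8.65%) were higher, beside 7.62% of all transcripts, and 5 (2.7%) lower, beside 4.85%. For the list as a whole, both of these comparisons gave shares near or below the background. In spermatids the deposited shares lower for complexes IV and II were above it. All transcripts of those complexes reached 10 RPKM in some region, unlike all transcripts.

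The lists for translation and copying of the mitochondrial genome had medians of at most 6.2 RPKM in every region. Mitochondrial ribosomal proteins (158 transcripts of 60 genes) had 19 transcripts (12.03%) lower in spermatogenesis than in the male mitotic region, beside 10.3% of all transcripts. In the oocyte against diplotene 5 of them (3.16%) were higher, beside 0.924%, and none was lower, beside 0.822%. The list for expression and copying of the mitochondrial genome found 18 transcripts of 4 genes, named for DNA polymerase gamma, which copies it, and for Twinkle, its helicase. Twinkle (AgB01_g488_t01) stood at 16.2, 9.3, 4.8, 6.9 and 6.5 RPKM in male and at 33.7, 16.4, 17.8, 3.5 and 2.8 RPKM in female regions. It was thus highest in the female mitotic region and lowest in the oocyte, where cytochrome b and ATP synthase subunit a were highest. The most abundant polymerase gamma transcript (AgR002_g117_t03) did not pass 6.0 RPKM in any region.

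**Figure D5:**
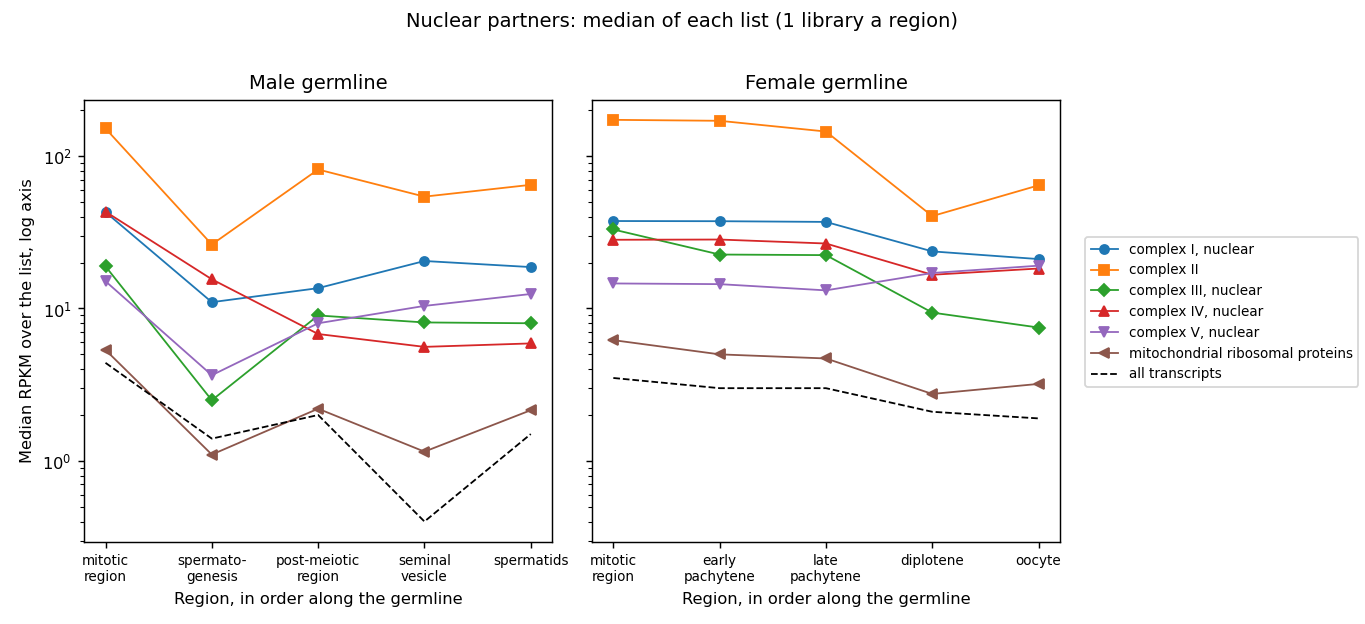
Median RPKM (log axis) of the nuclear lists for complexes I to V and for mitochondrial ribosomal proteins in the 5 male regions (left) and the 5 female regions (right), with the median of all 61820 transcripts as a dashed line. Every list except complex IV has its lowest deposited median in spermatogenesis, and the oocyte medians of complexes I to V are 7.5 to 64.3 RPKM.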

How the data were processed

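The values are RPKM as the authors computed and deposited them, rounded to 1 decimal, for every transcript in each of the 10 regions. TopHat2 and Cufflinks are the tools named in the submitters' processing notes, without versions. The build, the use of strand, whether reads or fragments were counted and the treatment of reads that match several models are not stated there. Per the labels' protocols, total RNA was extracted with Trizol, depleted of ribosomal RNA with a human, mouse and rat kit, and made into libraries with a TotalScript kit.

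Members were taken by gene identifier. Differences are of log2(RPKM + 1), with a pseudocount of 1, which understates changes of low transcripts, and calls need a 4-fold difference and 10 RPKM in the higher region. Calls were computed over all 61820 transcripts. With 1 library per region there is no test. The step size of values up to 3 RPKM in transcripts under 250 nt gave the depth of all 10 libraries. At that depth 93.2% to 100.0% of these values lay within 0.05 RPKM of a whole number of reads, beside 18.8% to 74.1% by chance. The call and rescaling code was tested on simulated data. Named transcripts were all those of AgE51, the 10 most alike by Pearson's r, and the 4 of highest mean per list; transcripts with mitochondrial genome names on other scaffolds were chosen after annotations were seen. The members and lists were chosen with earlier results of these data known. Alternatives were a pseudocount of 0.1, no filter, median ratios over 15277 transcripts, removal of the 100 highest transcripts or of AgE51 from the total, sums per gene, a 2-fold threshold and leaving out each region. No column of values lacked a sample, and 15 further columns were empty. Work was done in Python 3.11.15 with pandas 2.3.3, numpy 2.4.6, scipy 1.17.1 and matplotlib 3.10.9.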

Additional observations from a re-analysis of the deposited data

Results flagged for a closer look

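For 3 transcripts the last region differed from the first in opposite directions in the male and the female germline. The difference of log2(RPKM + 1) in the male (spermatids minus mitotic region) less that in the female (oocyte minus mitotic region) was -8.14 for cytochrome b (AgE51_g003_t01), -8.25 for ATP synthase subunit a (AgE51_g004_t01) and -7.32 for NADH dehydrogenase chain 1 (AgE51_g007_t01). Spermatids were lower than the male mitotic region and the oocyte was higher than the female one for each of the 3. The difference between the germlines was not tested, since each region has 1 library.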

How the results depend on the processing

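No paired analysis was possible because each region has 1 library and regions share no replicate beyond the number 1. The 46 counts of calls and non-overlaps are given here as genes of 5 for the members and as transcripts of 185 for the nuclear list. After rescaling by median ratios, members lower were 0 of 5 in spermatogenesis against the male mitotic region and 2 in spermatids against the seminal vesicle. For the nuclear list it gave 8 higher and 0 lower in spermatogenesis against mitotic, 0 higher in post-meiotic against spermatogenesis, 3 higher in seminal vesicle against post-meiotic, 7 higher and 0 lower at diplotene against late pachytene, 8 higher in the oocyte against diplotene, 7 lower in spermatids against mitotic, 22 higher and 1 lower in the oocyte against female mitotic, and 2 lower in male against female mitotic.

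A 2-fold threshold gave 3 members higher in post-meiotic against spermatogenesis, 3 lower in seminal vesicle against post-meiotic, 3 lower in spermatids against seminal vesicle, 1 higher and 1 lower at diplotene, 3 lower in the oocyte against diplotene, 2 lower in the oocyte against female mitotic and 5 higher in male against female mitotic. The nuclear list then had 46 higher in post-meiotic, 12 higher in seminal vesicle, 7 higher and 5 lower in spermatids against seminal vesicle, 2 higher and 13 lower in early pachytene, 8 higher and 65 lower at diplotene, 25 higher and 20 lower in the oocyte against diplotene, 113 lower in spermatids against mitotic, 16 higher and 62 lower in the oocyte against female mitotic, and 26 lower in male against female mitotic.

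A pseudocount of 0.1 gave 1 member lower in spermatids against seminal vesicle, and removal of AgE51 from the total gave 2 lower in the oocyte against female mitotic. The cause was not tested. Of the 88 differences of the 8 transcripts, 78 kept their side of the threshold under median ratios, 87 with a pseudocount of 0.1, 86 without AgE51 in the total and 87 without the 100 highest transcripts, and no called one changed direction. By gene, the region of highest value moved under median ratios to the post-meiotic region for AgE51_g004 (lead over the next region 1.03), to diplotene for AgE51_g005 (1.1) and to the oocyte for AgE51_g007 (1.91), and for AgE51_g007 also without the 100 highest transcripts (1.05). Leaving out each region in turn gave 0 members without overlap between the sexes each time. Depth limits the cytochrome b values of diplotene and spermatids most.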

Other observations

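Complex II has no subunit in the mitochondrial genome, and its nuclear genes for the flavoprotein, the subunit that binds the substrate, had unlike profiles. AgB05_g272_t02, a flavoprotein subunit of succinate dehydrogenase, stood at 227.6, 22.6, 177.2, 151.1 and 86.8 RPKM in the 5 male regions and at 589.8, 281.3, 311.9, 47.0 and 95.6 RPKM in the 5 female regions. AgB06_g265_t02, also named a flavoprotein subunit of that enzyme, stood at 107.8, 115.7, 25.8, 29.9 and 19.3 RPKM in the male and at 2.5, 1.0, 1.1, 29.5 and 28.1 RPKM in the female regions. AgB06_g265_t02 was thus the higher of the 2 in spermatogenesis only. Of the female regions it reached 10 RPKM in diplotene and the oocyte. The iron-sulfur subunit AgR009X_g230_t01, their partner in the enzyme, stood at 26.3 RPKM in spermatogenesis, against 290.1 RPKM in the male mitotic region. Which form of the enzyme each gene makes was not tested.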
